A study of Rattus norvegicus with 8 samples.

Results

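The tumour necrosis factor (TNF) superfamily comprises secreted or membrane-bound ligands and the receptors that bind them. Its members were taken as every gene whose symbol in the platform annotation starts with Tnfsf or Tnfrsf, plus Tnf, Lta, Ltb, Ltbr, Fas, Faslg, Cd40, Cd40lg, Cd27 and Cd70. This gave 32 genes, of 14497 with a named probe set on the array. They were 14 ligands and 18 receptors, each read by 1 probe set. Expression was measured on Affymetrix arrays with RNA from the left ventricle of female rats, abbreviated LP, which the title gives as late pregnancy. Every heart had gone through ischemia, the stop of its blood supply, and then reperfusion. During reperfusion the hearts behind 3 arrays received vehicle (placebo), and those behind 5 arrays received 1 bolus of 5 mg/kg of the treatment. The samples call this treatment ILPD and the design text ITLD, taken here as 1 agent. The title names Intralipid, a lipid emulsion. Uninjured hearts were not analysed here. Strain, genotype, age, the time of tissue collection and whether each array stands for 1 animal are not given in the sources used here, and p-values therefore rest on the variation among these arrays, which may be partly technical.

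Values are the deposited log2 expression values, and a difference is the ILPD mean minus the placebo mean on that scale. A gene is said to rise or fall only where limma's moderated test gave an adjusted p under 0.05 over all 28826 probe sets. The median over all probe sets of an array was 7.08 to 7.14 for placebo and 7.16 to 7.20 for ILPD. Defining markers of heart muscle were high: the group means of 14 cardiomyocyte genes lay between 11.06 (Nppa, in ILPD) and 14.35 (Actc1, in placebo). No detection call was used, so a low value here does not tell a weakly expressed gene from one that is off.

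Ligands of the family act mostly as trimers that draw their receptors together. One class of receptors carries a death domain and can start apoptosis or necroptosis, and the other recruits TRAF adaptor proteins, which pass the signal to NF-kB and to stress kinases. In the injured heart TNF is known to come from resident and infiltrating macrophages and from heart muscle cells. Its receptor Tnfrsf1a mediates most inflammatory and cytotoxic effects, while Tnfrsf1b is tied to cell survival.

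Promoter windows from RefSeq (build GRCr8) were matched to 23 of the 32 members by gene ID. The 250 bases before the start site are shown for Tnfsf13, the member that passed the test, for the receptor pair Tnfrsf1b and Tnfrsf1a, and for Tnfsf10, the member with the largest difference. Each is written 5′ to 3′ on the strand of its gene, and capitals mark the motif matches described next.
Tnfsf13, chr10:54901816-54902065, minus strand: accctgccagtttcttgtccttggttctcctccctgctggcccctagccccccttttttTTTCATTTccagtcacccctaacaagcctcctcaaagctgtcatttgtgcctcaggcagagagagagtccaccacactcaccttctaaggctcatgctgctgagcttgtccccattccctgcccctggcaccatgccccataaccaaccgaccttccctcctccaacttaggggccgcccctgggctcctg
Tnfrsf1b, chr5:162387412-162387661, minus strand: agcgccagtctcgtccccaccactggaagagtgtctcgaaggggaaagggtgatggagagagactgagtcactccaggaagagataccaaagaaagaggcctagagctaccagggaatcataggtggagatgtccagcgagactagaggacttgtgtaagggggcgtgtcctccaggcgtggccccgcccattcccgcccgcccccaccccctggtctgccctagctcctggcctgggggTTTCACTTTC
Tnfrsf1a, chr4:159836869-159837118, plus strand: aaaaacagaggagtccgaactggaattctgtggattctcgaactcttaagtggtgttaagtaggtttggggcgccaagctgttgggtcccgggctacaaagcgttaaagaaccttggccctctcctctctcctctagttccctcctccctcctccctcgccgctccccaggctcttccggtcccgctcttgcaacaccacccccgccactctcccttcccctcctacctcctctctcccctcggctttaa
Tnfsf10, chr2:112136689-112136938, plus strand: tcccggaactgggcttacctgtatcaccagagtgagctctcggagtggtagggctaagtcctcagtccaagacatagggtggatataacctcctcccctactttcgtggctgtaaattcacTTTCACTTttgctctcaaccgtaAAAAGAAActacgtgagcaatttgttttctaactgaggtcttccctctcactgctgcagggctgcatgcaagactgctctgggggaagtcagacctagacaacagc

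These windows were searched on both strands for 4 motifs. They were GAAA followed by any 2 bases and GAAA again, the core of the interferon-stimulated response element, AANNGAAA, the shorter core bound by interferon regulatory factors, which lies inside the first, TTCNNNGAA, the site type of STAT factors, and the kappaB consensus of NF-kB. The longer interferon core was found in Tnfrsf1b, at the last 10 bases before the start site, and also in the windows of Tnfrsf17 and Tnfsf13b. That made 3 of 23 members, against 3.29% of 27456 gene windows. The shorter core was found once in Tnfsf13 and at 2 places in Tnfsf10, and in 8 of 23 members in all, against 23.0% of all windows. The kappaB consensus was found in the windows of Fas, Lta, Ltb and Tnfrsf8, against 6.42% of all windows, and TTCNNNGAA in those of Lta, Ltb and Tnfrsf12a, against 7.52%. These are matches of letters in a short window and do not show that a factor binds there.

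Across the family 1 of 32 members rose in the ILPD hearts, the ligand Tnfsf13, and 0 fell. Over the whole array 2.81% of probe sets were called, 1.96% as higher and 0.857% as lower, so the family's 3.12% lay near the background. With 1 probe set per named gene the background was 3.46%. Before adjustment 9 members had a limma p under 0.05, each with the higher mean in ILPD. That is 28.1%, against 18.3% of all probe sets, or 11.3% in that direction. With 1 probe set per named gene the background was 3035 of 14497 in either direction. In 4 members the groups did not overlap (Tnfsf13, Tnfrsf1b, Tnfrsf9 and Tnfrsf1a), each higher in ILPD, against 12.4% of all probe sets, or 7.95% in that direction. Differences were positive for 28 members and negative for 4, with a median of 0.08, beside 0.02 over all probe sets, of which 58.5% were positive (55% over 1 probe set per named gene). The count of positive members depended on the scaling. It was 22 after a further quantile normalization and 24 after cyclic loess, with medians of 0.0275 and 0.0401.

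**Figure D1:**
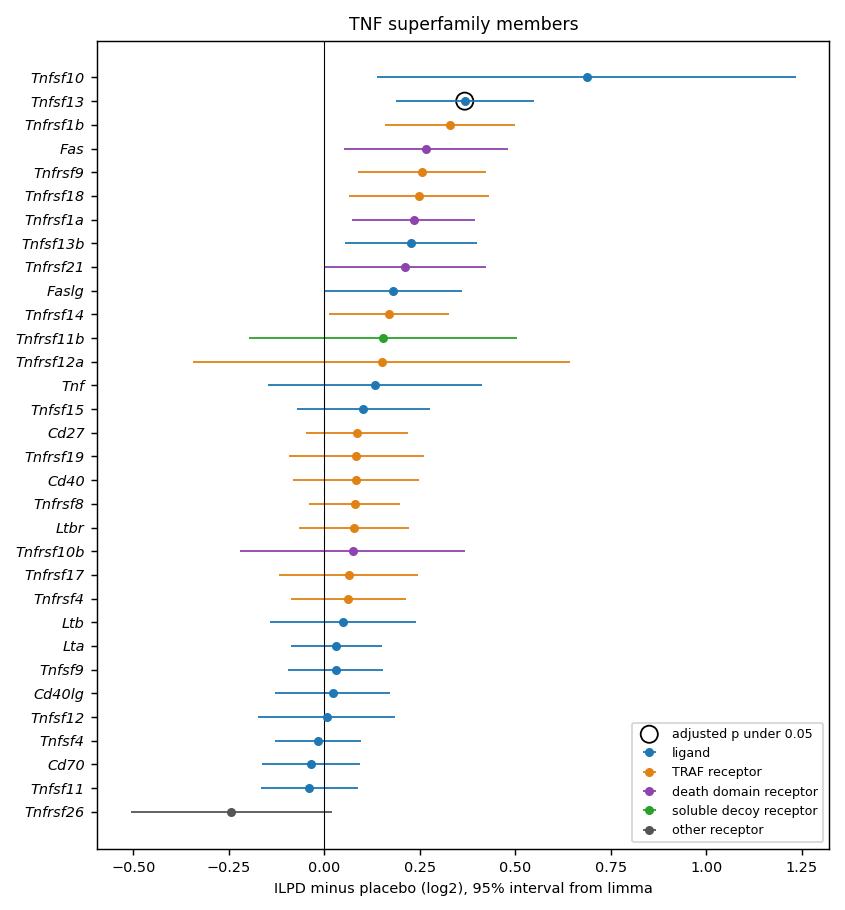
Difference between ILPD and placebo (log2, horizontal axis) for each of the 32 members, with limma's 95% interval and colour by role. Tnfsf13 (circled) is the member with an adjusted p under 0.05, Tnfsf10 has the largest difference and a wide interval, and Tnfrsf26 is the lowest.

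The size of most differences in array value was bounded by the data, which does not bound the change in RNA of dim members. For 30 of the 32 members limma's 95% interval, taken for each gene alone, stayed inside a 1.5-fold change in either direction. The exceptions were Tnfsf10 and Tnfrsf12a. Spread between arrays differed much among members. The SD within placebo ran from 0.02 (Cd27) to 0.71 (Tnfsf10), with a median of 0.11, and within ILPD from 0.02 (Cd70) to 0.40 (Tnfrsf12a). Many members were dim. The mean of 16 members lay below 7.15, the median over all probe sets, and of the probe sets with a mean under 7, which held 14 members, 0.719% were called, against 4.11% of those from 7 to 8.

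Tnfsf13 encodes APRIL, a ligand that supports B cells and plasma cells and is made largely by myeloid cells. Its probe set (10744161) read 7.67, 7.68 and 7.51 in placebo arrays 1 to 3 and 8.19, 8.04, 7.85, 7.95 and 7.92 in ILPD arrays 1 to 5. Every ILPD array lay above every placebo array, with ILPD array 1 the highest. The mean went from 7.62 ± 0.09 (SD, n = 3) to 7.99 ± 0.13 (SD, n = 5), a difference of 0.37 (SE 0.08) or 1.29-fold, with a limma adjusted p of 0.0450. In bulk tissue, more cells of a type and more RNA per cell cannot be told apart. The call was lost in 10 of 17 alternatives. These included leaving out any 1 of placebo arrays 1, 2 and 3 or ILPD arrays 2, 4 and 5 (limma adjusted p between 0.0501 and 0.1435), quantile normalization (0.113), cyclic loess (0.0913) and a minimum of 1.5-fold, and over the 17 the difference ran from 0.29 to 0.40.

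The related ligand Tnfsf13b and a shared receptor, Tnfrsf17, did not pass. Tnfsf13b encodes BAFF, the B cell survival factor closest to APRIL, and measured 7.14 ± 0.11 (SD, n = 3) in placebo and 7.37 ± 0.11 (SD, n = 5) in ILPD, a difference of 0.23 (limma adjusted p = 0.154). Only ILPD array 4 lay under the highest placebo array. Tnfrsf17, the plasma cell receptor BCMA that binds both ligands, differed by 0.06 (limma adjusted p = 0.746), with a 95% interval from -0.12 to 0.25.

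Of the receptors of TNF itself, Tnfrsf1b lay just outside the threshold and Tnfrsf1a farther from it. Tnfrsf1b read 9.35, 9.20 and 9.33 in placebo and 9.78, 9.66, 9.46, 9.55 and 9.66 in ILPD. Its groups did not overlap, and the difference was 0.33 (SE 0.08, limma adjusted p = 0.0511), or 1.26-fold. It missed the threshold as deposited. It passed after quantile normalization (0.0362), after cyclic loess (0.0261), without the dimmest 40% of probe sets (0.0439) and without ILPD array 3 (0.0398). With the looser threshold of 0.10 included, it was called in 5 of 17 alternatives and not in the others. Its limma adjusted p was 0.174 without placebo array 2, 0.1235 with the replicate block and 0.0765 with an intensity trend and robust prior. Tnfrsf1a, the death domain receptor found on nearly all cells, read 10.31, 10.18 and 10.26 in placebo and 10.37, 10.59, 10.54, 10.57 and 10.36 in ILPD. Here too the groups were apart, by a narrow margin for ILPD arrays 1 and 5. The difference was 0.23 (SE 0.07, limma adjusted p = 0.120), and it passed the 0.05 threshold in 0 of 17 alternatives.

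Tnf, the founding ligand, showed no such separation. It read 6.88, 6.99 and 7.12 in placebo and 6.96, 7.07, 6.89, 7.49 and 7.24 in ILPD, so that ILPD arrays 1, 2 and 3 lay within the placebo range. The difference was 0.13 (limma adjusted p = 0.636). Its 95% interval, from -0.15 to 0.41, left room for an increase in array value of up to 1.33-fold. The mean of Tnf over all arrays, 7.08, lay below the median over all probe sets, 7.15. The interval therefore bounds the array value and not the amount of RNA. The lymphotoxins, which share the locus of Tnf, differed by 0.03 (Lta) and 0.05 (Ltb). Ltbr, the lymphotoxin beta receptor, which acts in lymphoid organs and in noncanonical NF-kB signalling, read 8.57, 8.46 and 8.35 in placebo and 8.56, 8.62, 8.45, 8.55 and 8.50 in ILPD. Its groups overlapped, with a difference of 0.08 (limma adjusted p = 0.584).

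**Figure D2:**
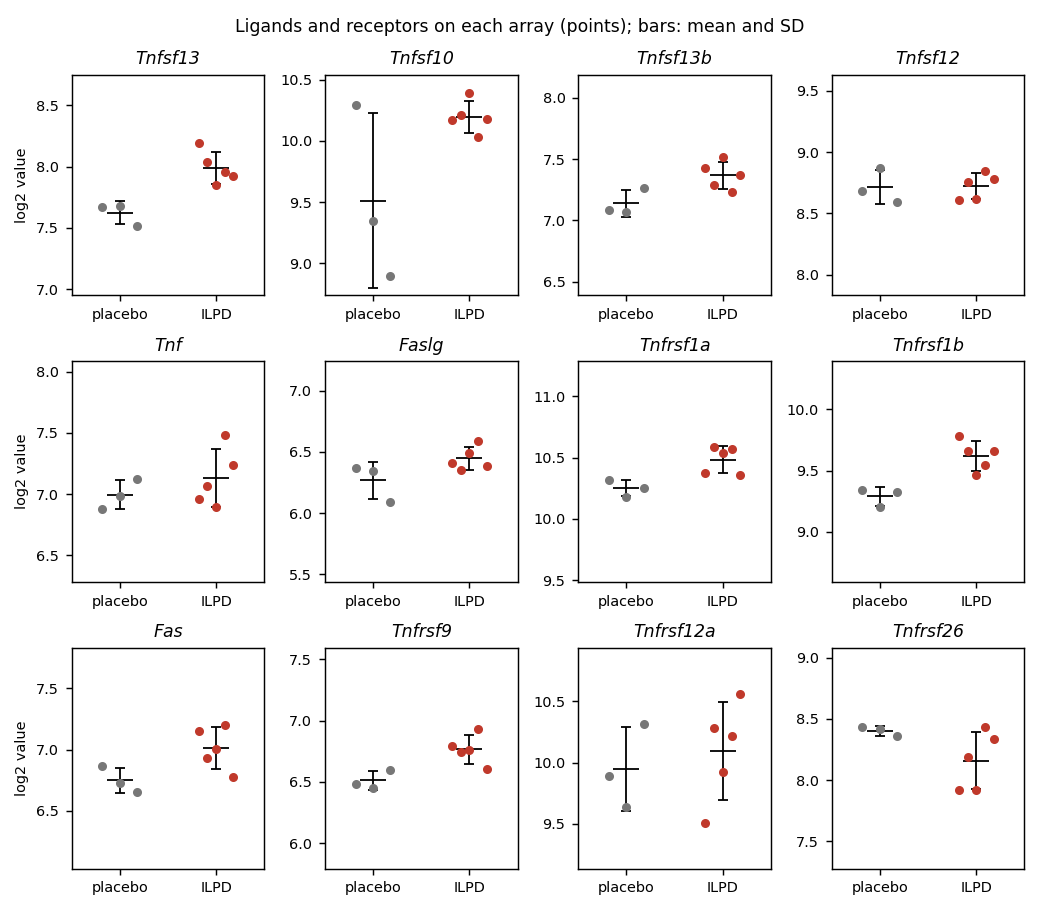
Log2 value of 12 members on each array, placebo in grey (3 arrays) and ILPD in red (5 arrays), with mean and SD; each panel spans the same 1.8 log2 units. Tnfsf13, Tnfrsf1a, Tnfrsf1b and Tnfrsf9 show groups that do not overlap, whereas 1 placebo array of Tnfsf10 lies among the ILPD arrays.

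Tnfsf10 encodes TRAIL, a death ligand and a well-known interferon-induced gene, and had the largest difference of the family. It read 10.29, 9.34 and 8.89 in placebo and 10.17, 10.21, 10.39, 10.03 and 10.18 in ILPD. The 5 ILPD arrays were close together, placebo arrays 2 and 3 lay below all of them, and placebo array 1 lay among them. The difference was 0.69 (SE 0.25), or 1.61-fold, and did not pass (limma adjusted p = 0.175). Single placebo arrays decided this value. Without placebo array 1 the difference was 1.08 and passed (limma adjusted p = 0.00926), and without placebo array 3 it was 0.38 (0.4056). In the 15 other alternatives it ran with the same sign and did not pass.

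Neither measured receptor that binds TRAIL passed the test. Tnfrsf10b, its death receptor, read 6.74, 6.90 and 7.02 in placebo and 6.57, 7.15, 6.90, 7.01 and 7.18 in ILPD. ILPD array 1 was the lowest of all 8 arrays, and the difference was 0.07 (limma adjusted p = 0.828). Tnfrsf11b encodes osteoprotegerin, a soluble decoy for TRAIL and for Tnfsf11, the ligand RANKL. It read 8.14, 7.68 and 7.91 in placebo and 8.03, 8.42, 7.89, 8.25 and 7.72 in ILPD, with wide overlap and a difference of 0.15 (limma adjusted p = 0.668). Tnfsf11 differed by -0.04 (limma adjusted p = 0.783).

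Fas, the receptor that starts apoptosis on binding Faslg, read 6.86, 6.73 and 6.65 in placebo and 7.15, 6.94, 7.01, 7.20 and 6.78 in ILPD. ILPD array 5 lay inside the placebo range and the other 4 above it. The difference was 0.27 (SE 0.10, limma adjusted p = 0.181). Faslg, made chiefly by cytotoxic lymphocytes, read 6.37, 6.34 and 6.09 in placebo and 6.41, 6.36, 6.49, 6.59 and 6.39 in ILPD, and its groups overlapped only in that ILPD array 2 lay just below placebo array 1. The difference was 0.18 (limma adjusted p = 0.274). Tnfrsf21, a death domain receptor known from neurons and T cells, measured 8.21 ± 0.08 (SD, n = 3) and 8.42 ± 0.17 (SD, n = 5), a difference of 0.21 (limma adjusted p = 0.275).

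Tnfrsf12a encodes Fn14, a small receptor that injury induces in heart muscle and fibroblasts, and Tnfsf12 its ligand TWEAK. Tnfrsf12a read 9.89, 9.63 and 10.31 in placebo and 9.51, 10.28, 9.92, 10.21 and 10.56 in ILPD. ILPD array 1 was the lowest and ILPD array 5 the highest of all arrays, and the groups overlapped throughout. The difference was 0.15 (SE 0.22, limma adjusted p = 0.784), with an interval from -0.34 to 0.64. Tnfsf12 read 8.68, 8.87 and 8.60 in placebo and 8.61, 8.76, 8.62, 8.85 and 8.78 in ILPD. Its difference was 0.01 (limma adjusted p = 0.978). The interval of Tnfsf12, from -0.17 to 0.19, left out a change in array value of more than 1.14-fold either way.

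For 11 members known from lymphocytes, grouped after their values were seen, differences were small. In this group (Lta, Ltb, Cd27, Cd70, Cd40, Cd40lg, Tnfrsf4, Tnfrsf8, Tnfrsf17, Tnfsf4 and Tnfsf9) differences ran from -0.03 to 0.09, and the lowest limma adjusted p was 0.483. The group leaves out Faslg, Tnfrsf9, Tnfrsf18 and Tnfrsf14, which also act in lymphocytes and had differences of 0.18, 0.26, 0.25 and 0.17. Cd40, the receptor by which T cells license B cells and macrophages, read 6.99, 7.26 and 7.25 in placebo and 7.24, 7.16, 7.35, 7.27 and 7.24 in ILPD. Placebo array 1 was the lowest, and the other arrays lay close together.

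Among costimulatory receptors Tnfrsf9 had the largest difference. Tnfrsf9, the receptor 4-1BB of activated T cells, read 6.49, 6.45 and 6.60 in placebo and 6.79, 6.75, 6.76, 6.93 and 6.60 in ILPD. The groups were apart only by the third decimal, between placebo array 3 and ILPD array 5, and the difference was 0.26 (SE 0.08, limma adjusted p = 0.106), beside 0.03 for its ligand Tnfsf9. Tnfrsf18, the receptor GITR of regulatory T cells, measured 7.02 ± 0.11 (SD, n = 3) and 7.27 ± 0.13 (SD, n = 5), a difference of 0.25 (limma adjusted p = 0.145). Tnfrsf14, which binds the ligand LIGHT, differed by 0.17 (limma adjusted p = 0.239). None of these 3 passed, and a test of receptor against ligand was not run.

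The remaining members were Tnfsf15, Tnfrsf19 and Tnfrsf26. Tnfsf15, an endothelial ligand that restrains vessel growth, differed by 0.10 (limma adjusted p = 0.542), and Tnfrsf19, an orphan receptor linked to development, by 0.08 (0.637). Tnfrsf26, a rodent receptor of little-known function, had the largest negative difference, -0.24 (SE 0.12, limma adjusted p = 0.317). It measured 8.40 ± 0.04 (SD, n = 3) in placebo and 8.16 ± 0.23 (SD, n = 5) in ILPD, where arrays 1 and 3, both at 7.92, were the lowest.

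Several members sit side by side in the rat genome. In the RefSeq gene order Tnfsf13 (0.37) lies next to Tnfsf12 (0.01). Tnfrsf1b (0.33) lies next to Tnfrsf8 (0.08), and Tnfrsf18 (0.25) next to Tnfrsf4 (0.06). Tnf (0.13) lies between Lta (0.03) and Ltb (0.05). The differences between neighbours were not tested.

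**Figure D3:**
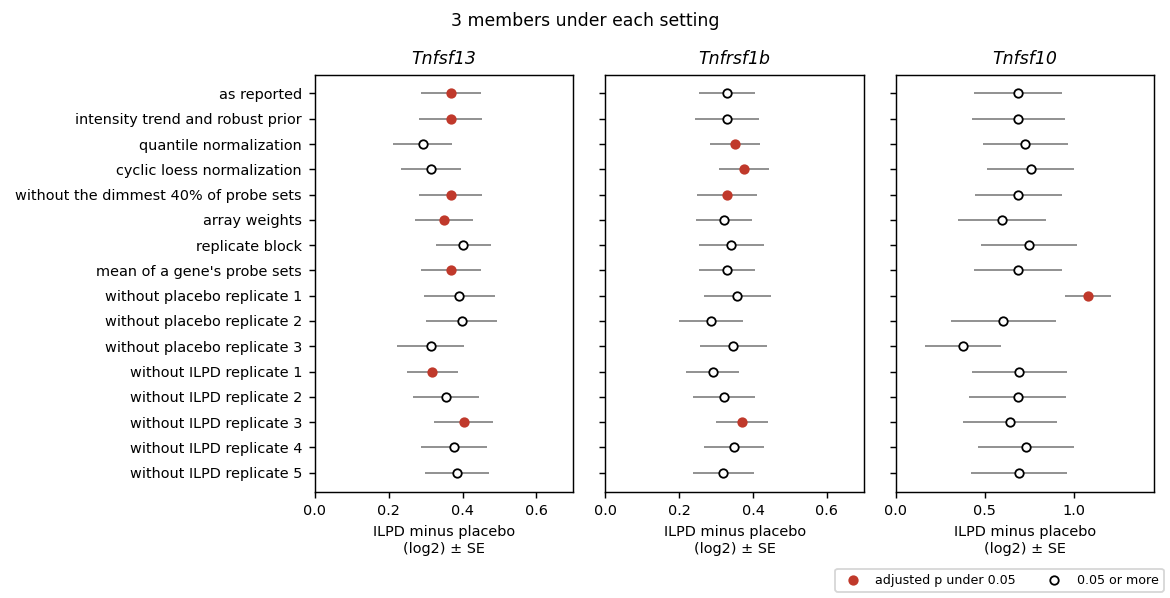
Difference between ILPD and placebo (log2 ± SE) of Tnfsf13, Tnfrsf1b and Tnfsf10 under each setting, with filled red points where limma's adjusted p was under 0.05. Tnfsf13 passes as deposited but not after quantile or cyclic loess normalization, where Tnfrsf1b does, and Tnfsf10 passes only without placebo replicate 1; the last panel has a wider axis.

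Downstream of the receptors, most adaptor and regulator genes did not pass. As background, 1.96% of all probe sets were called as higher and 0.857% as lower. Of 33 measured genes of the signalling list 1 rose, the kinase Ripk1 (0.51, limma adjusted p = 0.0227), and 1 fell, the initiator caspase Casp8 (-0.78, 0.0163), with a list median of 0.03. Both belong to the complexes that Tnfrsf1a and Fas assemble. Casp8 read 8.03, 8.34 and 8.10 in placebo and 7.55, 7.22, 7.04, 7.54 and 7.55 in ILPD, and Ripk1 read 9.11, 8.83 and 9.22 against 9.64, 9.60, 9.65, 9.53 and 9.40. Neither gene's groups overlapped. The call of Casp8 was lost without placebo array 2 or 3 and that of Ripk1 without placebo array 1 or 2 or ILPD array 2, with adjusted p of up to 0.0778 and 0.0734 in limma. At 1.43-fold, Ripk1 also missed a minimum of 1.5-fold. Without placebo array 2 the list held 0 calls.

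Further adaptors had separate groups without passing. In the list 9 of 33 genes, Ripk1 and Casp8 included, had groups that did not overlap, against 12.4% of all probe sets. Traf2, the adaptor shared by both TNF receptors, differed by -0.26 (limma adjusted p = 0.0556) and was lower on all 5 ILPD arrays than on any placebo array. Traf2 was called in 5 of 17 alternatives, among them quantile normalization, cyclic loess and the threshold of 0.10. Its partner Birc2, a ubiquitin ligase that protects cells from TNF, differed by 0.32 (0.0602), and Traf6, the adaptor of Cd40 and of Toll-like receptors, by 0.37 (0.0850). Birc3 (0.36, 0.233) and Tradd, the first adaptor on Tnfrsf1a (0.17, 0.176), overlapped between groups. Of 11 genes that cut or process the ligands, 0 were called by limma and 1 had an unadjusted p under 0.05, the proprotein convertase Furin (-0.22, adjusted p = 0.0872). Adam17, the protease that sheds TNF, differed by -0.12 (0.649).

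**Figure D4:**
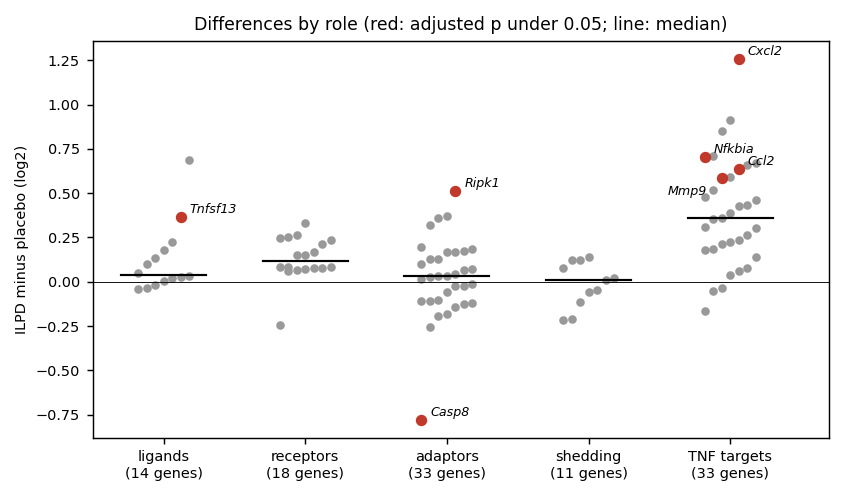
Difference between ILPD and placebo (log2, vertical axis) for each measured gene by role, with called genes in red and each list's median as a line. Among the lists drawn the TNF targets have the highest median, 0.36, while adaptors spread to both sides of 0.

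Genes known as targets of TNF and NF-kB had mostly positive differences. Of 33 measured targets 4 rose and 0 fell, with 30 positive differences and a median of 0.36. Over all probe sets 1.96% were called as higher, 58.5% were positive and the median was 0.02. The list was chosen with earlier results of these data known, so its counts are no independent test. The risers were the chemokines Cxcl2 (1.26, limma adjusted p = 0.0291) and Ccl2 (0.64, 0.0358), the inhibitor Nfkbia (0.71, 0.0462) and the gelatinase Mmp9 (0.58, 0.0466), which is also a neutrophil marker. Mmp9 kept its call in 4 of 17 alternatives. Without single arrays the count of called targets ran from 0 (without placebo array 1, placebo array 2 or ILPD array 2) to 6. Other inflammatory signals drive the same genes, and their transcripts do not tell which ligand acted. F3, tissue factor, differed by 0.91 with groups apart and did not pass (limma adjusted p = 0.0601). Vcam1, an adhesion molecule of activated endothelium, differed by 0.52 (0.0982). Both F3 and Vcam1 were picked after their values were seen. Other targets of the list differed little, such as Icam1 (0.06) and Nfkb1 (0.08). The 3 negative ones were Nfkb2 (-0.04), Cx3cl1 (-0.05) and Sod2 (-0.16).

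Markers of white blood cells had mostly positive differences, with few calls. As background for the marker lists, 2.81% of all probe sets were called, 1.96% as higher, and 58.5% had positive differences. The summed linear level of 15 neutrophil markers ran from 3342 to 5653 in placebo and from 5533 to 11699.8 in ILPD, so that the ranges overlapped, with 14 positive differences and 1 call, Mmp9. The summed level of 14 monocyte and macrophage markers ran from 9003 to 12373 in placebo and from 12109 to 18472 in ILPD. Among them 11 had positive differences and 1 was called, Cx3cr1. The brightest, Lyz2, differed by 0.65, beside -0.02 for C1qa, 0.01 for C1qb, -0.01 for C1qc and -0.17 for Adgre1. Of 15 T and NK cell markers 14 were positive and 1 rose, Klrd1, and of 7 B cell markers 0 were called by limma, with 1 at an unadjusted p under 0.05. Endothelial markers had 2 calls among 11, both higher (Egfl7 and Robo4), and mural cell markers 1 among 9 (Kcnj8, higher). Of the endothelial markers 8 were positive (list median 0.10) and 3 negative, Cdh5 and Eng (each -0.16) and Flt1 (-0.07). Of the mural markers 7 were positive (list median 0.15) and 2 negative, Rgs5 (-0.04) and Abcc9 (-0.05). Dendritic cell (8) and fibroblast (11) markers had 0 calls by limma, each list with 1 gene at an unadjusted p under 0.05. All 14 cardiomyocyte markers had negative differences, with a median of -0.16 and 1 call, Tnnc1. Over all 619 probe sets with a mean of 12 or more, where all of these markers but Nppa lie, the median difference was -0.14 and 6.14% were called. Most of the marker calls depended on the setting. Kcnj8 kept its call in 15 of 17 alternatives, and Egfl7, Cx3cr1, Klrd1 and Tnnc1 in 11 each. Robo4 kept it in 6 and Mmp9 in 4. The array scale has no zero, so no marker could be read as absent. The part of these cell types in the values of Tnfsf13, Tnfrsf1b and the other members was not tested.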

How the data were processed

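One Affymetrix array per sample was used, 3 placebo and 5 ILPD. The deposited values are on a log2 scale, read from their range of 4.77 to 14.8. No source used here states how the authors normalized them, and the submitters' processing notes name R 2.14.2. Members, gene lists, motifs and alternatives were chosen with earlier results of these data known. The motif AANNGAAA was added after the promoter sequences were seen. Gene names came from the platform annotation, updated by gene ID through a RefSeq table of assembly GRCr8; 15209 probe sets had 1 symbol, 306 several and 13311 none here, and all 32 members matched. A gene with several probe sets was represented by its brightest; each member had 1.

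The test was limma's (lmFit and eBayes, version 3.58.1 under R 4.3.3) on all 28826 probe sets, with no covariates, two-sided, Benjamini-Hochberg adjustment over all of them and a threshold of 0.05, checked on simulated data. The number of arrays limits the precision. Values on every array are given for members that passed, whose groups did not overlap or that differed by 0.5 or more, and for 12 set genes; from the lists, called genes and 8 set genes were to be named, of which Tnfaip3 is not analysed here. Furin, Birc2, Traf6, F3 and Vcam1 were picked after their values were seen. As alternatives, eBayes was run with a trend on intensity and a robust prior, arrays were rescaled by quantiles or cyclic loess, the dimmest 40% of probe sets were dropped, arrays were weighted, a replicate block was fitted, other thresholds were applied, probe sets of a gene were averaged and single arrays were omitted. Figures used matplotlib 3.10.9.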

Additional observations from a re-analysis of the deposited data

Results flagged for a closer look

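Among 48 genes examined in the ILPD group, 1 had an array far from the others. For Mmp9, a target of TNF and a neutrophil marker, ILPD array 3 read 7.065, with the next lowest ILPD array at 7.492. That gap took up 0.75 of the group's range, above Dixon's 95% critical value for 5 samples. Chance gives such an array in about 1 of 20 groups. None of the 32 members of the family had such an array in ILPD; the 3 placebo arrays are too few for this check.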

How the results depend on the processing

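Replicate numbers 1 to 3 occur in both groups. Same-numbered arrays had correlations of deviations from the group means of 0.221, -0.0642 and -0.098. Differently numbered arrays ran from -0.165 to 0.247. So few values cannot tell whether the numbers mark pairs, and they were not taken as pairs. With the replicate block 459 probe sets and 0 members were called, against 811 and 1; Tnfsf13 then differed by 0.40 (limma adjusted p = 0.0590). Called probe sets were 484 after quantile normalization, 1756 at a threshold of 0.10 and 217 with a fold of at least 1.5. Members called as higher were 2 without dim probe sets, 2 at a threshold of 0.10 and 0 with a 1.5-fold minimum. Members called as lower were 0 throughout. Quantile normalization and cyclic loess left 1 called member, Tnfrsf1b in place of Tnfsf13. The members' median of 0.08 was 0.0275 after quantile normalization, 0.0401 after cyclic loess and 0.133 without dim probe sets, which kept 23 members. Called adaptors were 5 at a threshold of 0.10 and 1 with a 1.5-fold minimum, and called targets were 2 with an intensity trend and robust prior and 7 at 0.10.

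Leaving out 1 array gave 172 to 975 called probe sets, 0 to 2 members called as higher, member medians of 0.0724 to 0.129, 0 to 3 adaptors and 0 to 6 targets. It also lowers the sample number.

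Small differences changed sign, none of them called. After quantile normalization they were -0.000282 for Cd40, -0.0201 for Lta, -0.0293 for Ltb, -0.00995 for Tnfrsf4, -0.0187 for Tnfsf12 and -0.0437 for Tnfsf9. After cyclic loess they were -0.0137 for Lta, -0.0176 for Ltb, -0.000466 for Tnfrsf4 and -0.0346 for Tnfsf9. With array weights Tnfsf12 gave -0.00601. With the replicate block Cd40lg gave -0.0361, Tnf -0.0225, Tnfrsf10b -0.0135, Tnfrsf12a -0.0429 and Tnfsf12 -0.0543. Over single arrays left out, differences ran from -0.0055 to 0.129 for Cd40, -0.0312 to 0.0625 for Cd40lg, -0.0878 to 0.0215 for Cd70, -0.00278 to 0.0921 for Ltb, -0.00611 to 0.333 for Tnfrsf12a, -0.00316 to 0.133 for Tnfrsf19, -0.0539 to 0.0839 for Tnfsf12, -0.0376 to 0.0166 for Tnfsf4 and -0.00493 to 0.0719 for Tnfsf9. The causes were not tested.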

Other observations

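Superfamily receptors and relatives whose symbols fall outside the naming rule were read as well. Of 4 measured (Ngfr, Relt, Rell1 and Rell2), limma called 0 and 0 had an unadjusted p under 0.05. Rell1, a binding partner of the receptor Relt, had the largest difference, -0.30 (limma adjusted p = 0.404), from 9.37 to 9.07. Relt itself differed by -0.00459 (0.987) and Ngfr, the neurotrophin receptor, by 0.11 (0.482).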
